A study of Mus musculus with 38 samples.

Results

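Exosomes of insulin-sensitive (IS) adipocytes were given to 4T1 cells, and the RNA of these cells was compared across all genes with that of untreated 4T1 cells of the same experiment. Libraries were chosen by their titles, 3 with IS exosomes and 3 untreated, which are 6 of the 38 libraries of the series. The 3 libraries with exosomes of insulin-resistant (IR) adipocytes from the same experiment entered the fit and show where both kinds of exosome differ. The series asks how insulin resistance of fat cells bears on triple-negative breast cancer through exosomes, and here the insulin-sensitive arm is described beyond its sterol and cytokine genes.

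All 9 cultures were of 4T1, a mammary carcinoma line of the mouse that stands in for triple-negative breast cancer, grown in RPMI1640 with fetal bovine serum. The IS and IR groups got exosomes that had been isolated from 3T3-L1 cells, a mouse pre-adipocyte line made to mature into fat cells, and were then kept for 72 h, and the last group had no treatment. Neither the exosome dose nor the way the fat cells were made insulin resistant is given in the labels used here, and a group given carrier alone or exosomes of another cell type was not analysed here. The labels also give no culture time for the untreated group, so it is not known to match the 72 h of the exosome groups. The titles call the libraries biological replicates without saying that they came from separate cultures, so p-values reflect only how these samples vary, which may be partly technical variation. 4T1 is a single line, and each result is a property of that line in culture.

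Exosomes are small vesicles that cells release and other cells take up, with lipids, proteins and RNAs inside. 4T1 cells hold features of both epithelium and mesenchyme: they make E-cadherin and keratins as epithelia do, and vimentin and fibronectin as mesenchymal cells do. Junction proteins and keratins bind epithelial cells to each other, integrins bind them to the matrix, and secreted collagens, matricellular proteins and proteases build and cut that matrix. In bulk RNA a lower value can mean fewer cells of a kind or less RNA per cell, and these cannot be told apart.

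Library totals were 8455412 to 12785398 counts with IS exosomes, 10179744 to 11265613 with IR exosomes and 9254662 to 11405709 in untreated cells, so their precision was alike. Values are CPM, the share of a gene in the counts of its library, scaled between libraries. All 12 markers of mammary carcinoma epithelium had counts in IS exosome cells, and their summed level was 2879 to 2947 CPM there, 3366 to 3428 CPM with IR exosomes and 3851 to 3854 CPM in untreated cells. The markers did not all move together. By the test given below, 8 of the 11 that passed the filter were lower than in untreated cells, beside 9.32% of all genes. Elf3 was higher (log2 fold change 0.89), and Krt19 and Esrp1 were not called. Ehf, below the filter, had 38 counts with IS exosomes and 0 in untreated cells. Of 18 adipocyte markers, 8 were at 0 counts in every IS exosome library, among them Adipoq, Lep and Cd36, and the list summed to 10.45 to 13.81 CPM with IS exosomes and 10.01 to 14.4 CPM without treatment. Fibroblast markers summed to 28.6 to 33.92 CPM with IS exosomes and 18.79 to 22.55 CPM in untreated cells, and of the 2 markers that passed the filter Pdgfra was higher and Postn lower, both described below. Macrophage markers summed to 14.75 to 15.11 CPM with IS exosomes and 13.24 to 15.19 CPM in untreated cells. Mitochondrially encoded RNA made up 0.438% to 0.634% of counts with IS exosomes, 0.0929% to 0.531% with IR exosomes and 0.273% to 0.582% in untreated cells, with the lowest share in IR 2. Pairs of IR libraries that held IR 2 also differed more in their counts. IR 2 had a chi-square per degree of freedom of 8.62 with IR 1 and 5.30 with IR 3, and IR 1 had 3.58 with IR 3. Values were 2.19 to 2.92 between IS exosome libraries and 2.45 to 3.75 between untreated ones. Mean correlations of log levels within a group differed little, at 0.98967 to 0.99133 with IR exosomes and 0.99043 to 0.99083 in untreated cells. Counts that change without IR 2 are given below.

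After 72 h with IS exosomes, 1086 genes were higher and 1015 lower than in untreated cells out of 10888 tested, that is 9.97% and 9.32% of all genes (edgeR's quasi-likelihood test, Benjamini-Hochberg adjusted p of at most 0.05). Most changes were small: the median size among these 2101 genes, 19.3% of those tested, was 0.27 on the log2 scale, and 82.5% of them differed by less than 1.5-fold. Changes of at least 2-fold were called for 99 genes upwards and 25 downwards. The libraries of both groups did not overlap for 36.8% of the genes tested, and those of IS and IR exosomes for 26.6%. The direction depended on the level of a gene. Of the 2490 genes at a mean of at least 100 CPM, 22.7% were called lower and 7.95% higher, whereas among the 1845 genes under 10 CPM 1.57% were called lower and 11.7% higher. The median log2 fold change was 0.12 below 10 CPM and -0.045 from 100 CPM upwards. Counts of several gene lists are therefore read against these shares too, and those of the other lists only against the shares over all genes.

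**Figure D1:**
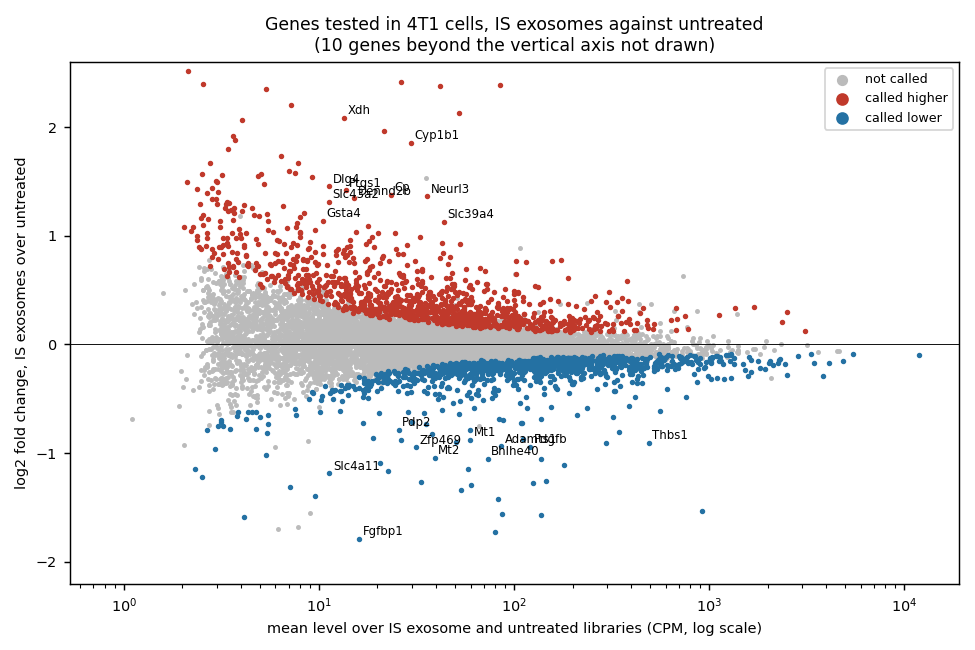
Each point is 1 of the tested genes, with its mean level over the IS exosome and untreated libraries (CPM, log scale) across and its log2 fold change, IS exosomes over untreated, upwards. Red points were called higher, blue points lower and grey points neither, and the names mark the 10 largest rises and falls among genes of at least 10 CPM outside sterol, lipid and cytokine lists; at 100 CPM and above blue points are more frequent than red ones (566 and 198 genes).

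Outside sterol, lipid and cytokine genes, the 10 largest rises among genes of at least 10 CPM included enzymes, transporters and signalling scaffolds. Genes were named here only if their IS exosome and untreated libraries did not overlap, so that separation follows from the choice. Xdh, which makes uric acid from purines, had 21.6, 24.1 and 19.95 CPM in IS exosome cells, against 4.65, 5.84 and 4.92 CPM in untreated cells. The groups lay far apart, with a log2 fold change of 2.09 ± 0.13 (SE), adjusted p = 5.79e-09. Cyp1b1, a monooxygenase that is a target of the aryl hydrocarbon receptor, had 45.6, 50.2 and 43.2 CPM with IS exosomes and 14.7, 11.6 and 11.99 CPM without, a log2 fold change of 1.86 ± 0.093 (SE), adjusted p = 5.71e-10. With IR exosomes, where 6.67% of all genes were called higher and 6.9% lower than in untreated cells (13.6% in all), Xdh and Cyp1b1 also rose (log2 1.67 and 1.51), but less, and the difference between the exosome groups passed its own test (IS over IR, log2 0.41 ± 0.10 (SE), adjusted p = 0.0255 for Xdh and log2 0.35 ± 0.079 (SE), adjusted p = 0.017 for Cyp1b1). Dlg4, a scaffold of membrane receptors, rose by 1.45 (log2, adjusted p = 3.84e-07), again more than with IR exosomes (IS over IR, log2 0.59 ± 0.11 (SE), adjusted p = 0.00464).

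Ptgs1, the constitutive cyclooxygenase, rose by 1.42 on the log2 scale (adjusted p = 3.05e-06). Cp, ceruloplasmin, a copper-binding ferroxidase, rose by 1.37, Dennd2b, which activates Rab GTPases of membrane traffic, by 1.34, Slc43a2, an amino acid transporter, by 1.31, and Gsta4, which conjugates products of lipid peroxidation, by 1.14 (log2, adjusted p from 1.19e-08 for Cp to 8.79e-06 for Gsta4). For these 5 genes no difference between IS and IR exosomes was called. Neurl3, a ubiquitin ligase, was at 51.7, 53.6 and 49.8 CPM with IS exosomes, 65.2, 61.5 and 55.3 CPM with IR exosomes and 20.4, 19.6 and 20.1 CPM without. It rose with both, and was lower with IS than with IR exosomes (IS over IR, log2 -0.23 ± 0.063 (SE), adjusted p = 0.0392).

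The falls were led by Fgfbp1, a secreted carrier that frees fibroblast growth factors from the matrix. Fgfbp1 had 7.799, 5.63 and 7.92 CPM in IS exosome cells, against 22.05, 28.4 and 24.7 CPM in untreated cells, a log2 fold change of -1.79 ± 0.14 (SE), adjusted p = 1.8e-07. Pdgfb, a chain of platelet-derived growth factor, had 86.1, 76.3 and 86.9 CPM with IS exosomes and 159.6, 165 and 155 CPM without, a log2 fold change of -0.94 ± 0.055 (SE), adjusted p = 4.16e-09. In IS exosome cells both genes were below every untreated library, which the rule that named the largest falls required. Bhlhe40, a transcriptional repressor linked to the clock, fell by 1.05 (log2, adjusted p = 1.19e-09), and Slc4a11, a membrane transporter, by 1.19 (log2, adjusted p = 2.2e-05). Zfp469, a zinc finger gene, fell by 0.95 (log2, adjusted p = 0.000208) and Pdp2, a phosphatase that activates pyruvate dehydrogenase, by 0.79 (log2, adjusted p = 2.73e-05). Each of these genes was also called lower with IR exosomes. Over untreated the log2 fold changes were -1.96 for Fgfbp1, -1.20 for Pdgfb, -1.03 for Bhlhe40, -0.88 for Slc4a11, -1.28 for Zfp469 and -0.46 for Pdp2. Of these genes, only Pdgfb was called between the exosome groups (IS over IR, log2 0.26 ± 0.058 (SE), adjusted p = 0.0145). Adamts1 and Thbs1, which complete the 10 falls with Mt1 and Mt2, are described with the matrix.

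Both metallothionein genes, whose small proteins bind zinc and copper, were among the 10 largest falls. Mt1 had 38.5, 45.7 and 43.1 CPM in IS exosome cells, against 76.4, 75.4 and 80.4 CPM in untreated cells. The log2 fold change of Mt1 was -0.88 ± 0.066 (SE), adjusted p = 1.07e-07. Mt2 had 24.05, 26.9 and 25.9 CPM with IS exosomes and 56.03, 59.7 and 42.9 CPM without, a log2 fold change of -1.04 ± 0.10 (SE), adjusted p = 3.04e-06. Zinc transport genes changed as well: Slc39a4, which brings zinc into the cell and was named by its size, had 59.5, 60.2 and 60.2 CPM with IS exosomes, against 29.5, 26.9 and 25.9 CPM without (log2 fold change 1.13 ± 0.067 (SE), adjusted p = 5.04e-09). A further pair was chosen after its values were seen. Slc30a1, which exports zinc at the cell surface, was at 22.9, 22.3 and 22.6 CPM with IS exosomes and 36.5, 31.8 and 35.7 CPM without (log2 fold change -0.62 ± 0.093 (SE), adjusted p = 0.0002). Slc39a10, another zinc importer, was at 119, 118 and 114 CPM with IS exosomes and 83.03, 78.6 and 87.6 CPM without (log2 fold change 0.49 ± 0.053 (SE), adjusted p = 7.38e-06). In all 5 genes the libraries of both groups lay apart, as they did for 36.8% of all genes tested, the exporter and the metallothioneins lower and the importers higher. These genes were picked by the size of their change or after their values were seen, so their separation follows from the choice. Other zinc transporter genes were not counted, and the pattern is not a result about zinc genes as a set.

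With IR exosomes Mt1 was lower still (35.4, 30.7 and 33.8 CPM), and Slc39a10 was higher still (159, 177 and 164 CPM). The difference between the exosome groups passed for both (IS over IR, log2 0.34 ± 0.072 (SE), adjusted p = 0.0109 for Mt1 and log2 -0.51 ± 0.051 (SE), adjusted p = 3.46e-05 for Slc39a10). In mouse, metallothionein genes are known to be switched on by zinc through metal response elements, whose core is written TGCNCNC. The RefSeq promoter windows of Mt1 and Mt2 (GRCm38.p6, 250 bases before to 50 after the annotated start) are shown because both genes fell together. Capitals mark each match of TGCNCNC on either strand.
Mt1, chr8:94178839-94179138, plus strand: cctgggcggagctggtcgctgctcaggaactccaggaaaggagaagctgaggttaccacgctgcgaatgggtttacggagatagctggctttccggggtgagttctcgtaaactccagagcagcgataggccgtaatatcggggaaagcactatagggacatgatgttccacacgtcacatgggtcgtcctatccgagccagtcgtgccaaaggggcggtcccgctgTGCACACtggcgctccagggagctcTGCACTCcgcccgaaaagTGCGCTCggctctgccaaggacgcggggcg
Mt2, chr8:94172368-94172667, plus strand: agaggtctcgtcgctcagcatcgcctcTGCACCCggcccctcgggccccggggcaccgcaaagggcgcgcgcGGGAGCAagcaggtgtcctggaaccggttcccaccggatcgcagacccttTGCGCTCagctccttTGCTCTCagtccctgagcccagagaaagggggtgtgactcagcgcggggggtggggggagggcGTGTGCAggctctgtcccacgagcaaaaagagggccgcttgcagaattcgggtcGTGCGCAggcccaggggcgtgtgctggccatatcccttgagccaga
The Mt1 window held 3 matches and the Mt2 window 6. Of 32851 promoter windows of the same length, 51% held at least 1 match, 7.1% held 3 or more and 0.225% held 6 or more. A match describes the letters in the window and says nothing of binding in these cells.

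Beyond single genes, 25 lists with 796 distinct genes were followed, of which 585 passed the filter on low counts. The lists were read by their counts in each direction and their medians, beside a median of 0.0012 and shares of 9.97% higher, 9.32% lower and 19.3% called over all genes tested. Counts that move by over 1.5 times when a library is left out are given with their range.

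**Figure D2:**
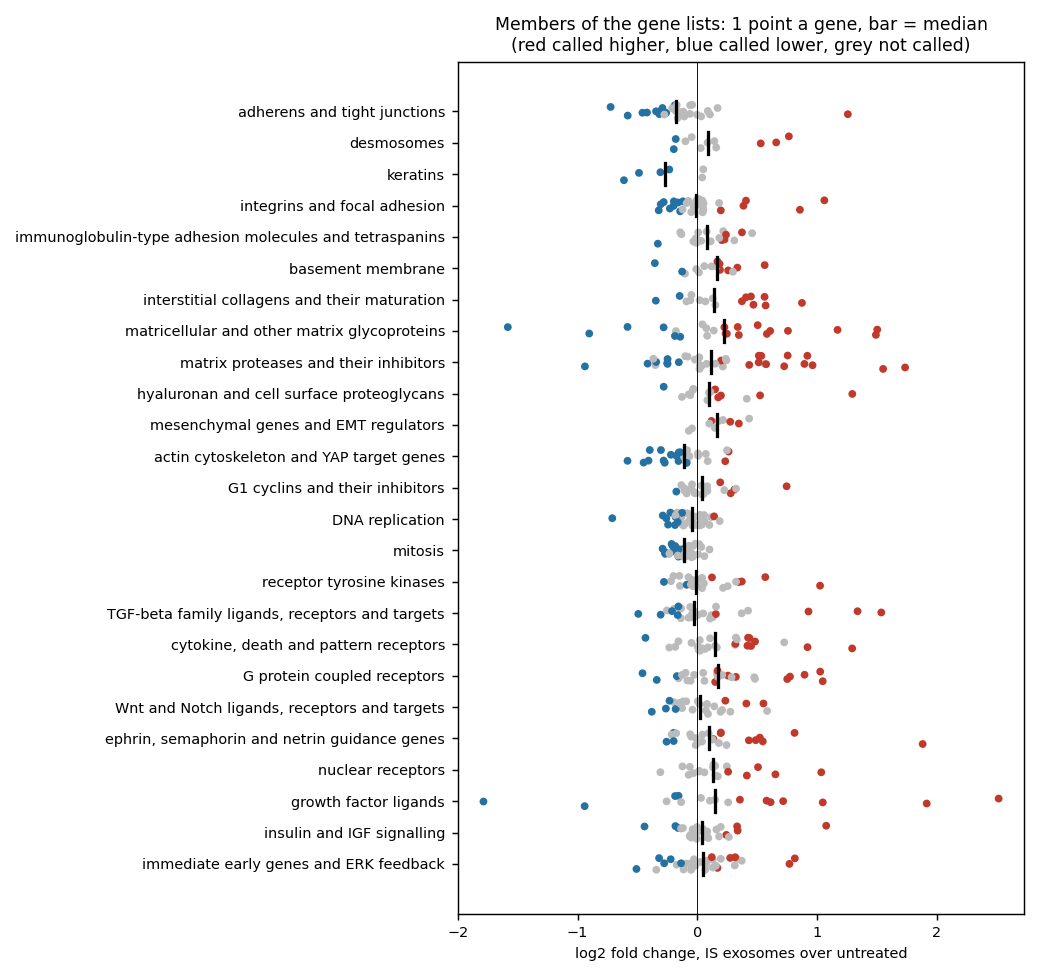
Each row is a gene list and each point a tested member, placed by its log2 fold change, IS exosomes over untreated; red was called higher, blue lower, grey neither, and the black bar is the median of the list. Keratins, junction genes, actin and YAP targets and mitosis genes lie mostly left of 0 (medians -0.27, -0.18, -0.11 and -0.11), and matrix glycoproteins mostly right of it (median 0.23).

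More genes of adherens and tight junctions fell than rose in IS exosome cells. Of 28 tested members, 11 fell and 1 rose, or 2 without IS 1 (median log2 -0.18), beside 9.32% lower and 9.97% higher over all genes. Of the 10 members at a mean of at least 100 CPM, 5 fell, where the share over all genes of that level was 22.7%. With IR exosomes 9 of the 28 fell and 2 rose, beside 6.9% lower and 6.67% higher over all genes. Cldn4, a claudin that seals tight junctions, had 84.6, 77.5 and 83.9 CPM in IS exosome cells, against 135, 140.4 and 132 CPM in untreated cells, a log2 fold change of -0.72 ± 0.055 (SE), adjusted p = 1.21e-07. Cdh1, E-cadherin, the main adhesion molecule of adherens junctions, had 362, 349 and 359.8 CPM with IS exosomes and 442, 459 and 459 CPM without, a log2 fold change of -0.34 ± 0.035 (SE), adjusted p = 3.59e-06. Every IS exosome library was below every untreated one for both genes. Cldn4 and Cdh1 also fell with IR exosomes (IR over untreated, log2 -0.82 and -0.45), and neither was called between IS and IR exosomes. Pard6b, a polarity protein of tight junctions, had 49.9, 54.3 and 45.96 CPM with IS exosomes and 77.7, 72.1 and 73.6 CPM without, a log2 fold change of -0.58 ± 0.06 (SE), adjusted p = 4.23e-06. With IR exosomes its log2 fold change over untreated was -0.54. Cldn7 fell by 0.46 (log2, adjusted p = 0.000106), and was also lower than with IR exosomes (IS over IR, log2 -0.25 ± 0.065 (SE), adjusted p = 0.0286).

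Epcam, an epithelial adhesion molecule, separated the exosome groups. It had 139, 139 and 153 CPM with IS exosomes, 202, 208 and 189 CPM with IR exosomes and 175, 193 and 170.1 CPM in untreated cells. The 3 IS exosome libraries were the lowest of the 9, with a log2 fold change of -0.32 ± 0.054 (SE), adjusted p = 0.000585, over untreated and -0.47 ± 0.054 (SE), adjusted p = 0.000102, over IR exosomes. IR exosomes over untreated cells gave a log2 fold change of 0.16 that was not called (adjusted p = 0.064).

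Keratins, the intermediate filaments of epithelia, fell in 4 of 6 tested members and rose in none (median log2 -0.27), beside 9.32% lower over all genes. The other 8 of the 14 listed were below the filter. Of the 4 members at a mean of at least 100 CPM, 3 fell, where 22.7% of all genes of that level did. Krt7 had 433, 447 and 457 CPM with IS exosomes, 527, 505 and 509 CPM with IR exosomes and 670.3, 677 and 696 CPM in untreated cells, with a log2 fold change over untreated of -0.61 ± 0.034 (SE), adjusted p = 2.45e-09. Krt18 had 653, 617 and 644 CPM with IS exosomes, 792, 817 and 814 CPM with IR exosomes and 905, 880.0 and 896 CPM in untreated cells, with a log2 fold change over untreated of -0.49 ± 0.032 (SE), adjusted p = 1.88e-08. For both keratins IR exosome cells lay between the others. Krt8, the partner with which keratin 18 forms filaments, had 951, 1009 and 983 CPM with IS exosomes, 1209, 1210.1 and 1182 CPM with IR exosomes and 1225, 1219.8 and 1198 CPM in untreated cells. Its log2 fold change over untreated was -0.31 ± 0.03 (SE), adjusted p = 2.11e-06, and over IR exosomes -0.29 ± 0.03 (SE), adjusted p = 3.61e-05, while IR exosomes over untreated gave -0.016 (adjusted p = 0.788). Krt80 fell by 0.23 (log2, adjusted p = 0.0259), a call lost without IS 2 and without control 2.

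Of 11 tested desmosome genes, 3 were higher and 2 lower (45.5% called, beside 19.3% of all genes). Ppl, periplakin, which links keratins to desmosomes, had 69.8, 71.9 and 68.1 CPM in IS exosome cells, against 50.1, 45.6 and 49.2 CPM in untreated cells, a log2 fold change of 0.53 ± 0.062 (SE), adjusted p = 1.64e-05. Dsc2, a desmosomal cadherin, was also higher (log2 0.77 ± 0.17 (SE), adjusted p = 0.00441), and Perp, a desmosomal membrane protein, lower (log2 -0.20 ± 0.046 (SE), adjusted p = 0.00705). Evpl, envoplakin, was higher by 0.66 (log2, adjusted p = 0.0263), but lost the call without IS 1, IS 2, control 2 or control 3. The count of lower desmosome members was 1 without IS 1, IS 2, control 2 or control 3.

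Attachment to the matrix changed in both directions. Of 32 tested integrin and focal adhesion genes, 9 fell and 5 rose, and 21 of the 32 had a mean of 100 CPM or more. All 9 that fell were among those 21, and their share is to be read against 22.7% of such genes over the transcriptome; it was 6 of 32 members without control 2. Itga3, the integrin chain of laminin receptors, had 2234, 2276 and 2272 CPM with IS exosomes and 2701, 2695 and 2839 CPM without, a log2 fold change of -0.28 ± 0.026 (SE), adjusted p = 1.39e-06. Tns3, a tensin that ties integrins to actin, fell by 0.32 (log2, adjusted p = 1.03e-05), and Bcar1, a docking protein of focal adhesions, by 0.30 (log2, adjusted p = 1.45e-05). Tns4, a shorter tensin, went the other way with 395, 376 and 382 CPM with IS exosomes, against 288, 292 and 301 CPM without (log2 fold change 0.39 ± 0.039 (SE), adjusted p = 3.04e-06).

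Of 19 adhesion molecules of the immunoglobulin type, CD44 and tetraspanins, 4 rose and 1 fell (26.3% called, beside 19.3% of all genes). Cd44, a receptor for hyaluronan, was the one that fell. It was at 308, 293 and 302 CPM with IS exosomes, 327, 345 and 356 CPM with IR exosomes and 369, 386 and 379.5 CPM without (log2 fold change over untreated -0.33 ± 0.039 (SE), adjusted p = 1.78e-05, over IR exosomes -0.19 ± 0.039 (SE), adjusted p = 0.0107). Cd47, which signals to macrophages not to engulf a cell, had 156, 151 and 157 CPM with IS exosomes and 112, 123 and 123 CPM without (log2 fold change 0.37 ± 0.045 (SE), adjusted p = 2.15e-05). Cd81, a tetraspanin, was higher by 0.23 (log2, adjusted p = 0.00792), a call lost without IS 3, and Igsf8, its partner in the membrane, by 0.21 (log2, adjusted p = 0.00785).

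Genes of the actin cytoskeleton and targets of the co-activator YAP fell in 14 of 28 tested members, rose in 2 and were not called in 12 (median log2 -0.11). As 26 of the 28 had a mean of 100 CPM or more, and 13 of these fell, the count stands beside 22.7% lower among all genes of that level. Tpm1, a tropomyosin that lies along actin filaments, had 528, 528 and 525 CPM in IS exosome cells, against 693, 719.9 and 682 CPM in untreated cells, a log2 fold change of -0.41 ± 0.033 (SE), adjusted p = 2.37e-07. Ccn1, a matricellular target of YAP, had 203, 170.2 and 194 CPM with IS exosomes and 281, 288 and 282 CPM without, a log2 fold change of -0.58 ± 0.051 (SE), adjusted p = 6.75e-07. Ankrd1, another YAP target, had 162, 148 and 176 CPM with IS exosomes and 221, 228 and 217 CPM without, a log2 fold change of -0.45 ± 0.051 (SE), adjusted p = 1.27e-05. All 3 genes had their IS exosome libraries below the untreated ones, and none of them was called between IS and IR exosomes. Actb, cytoplasmic actin, fell by 0.17 (log2, adjusted p = 2.73e-05), and Actb shares much of its sequence with Actg1, so reads may be split between both. Mesenchymal genes gave 3 of 10 tested members higher and 0 lower, beside 9.97% higher and 9.32% lower over all genes. Vim was higher by 0.12 (log2, adjusted p = 0.00127), Fn1, fibronectin, by 0.35 (log2, adjusted p = 0.000187) and Snai1, a repressor of E-cadherin, by 0.28 (log2, adjusted p = 0.035). The count of higher members was 5 without control 2, and Snai1 lost its call without IS 1, IS 3 or control 3 and with DESeq2. With IR exosomes 3 members of this list were higher and 1 lower than in untreated cells, beside 6.67% and 6.9% of all genes.

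**Figure D3:**
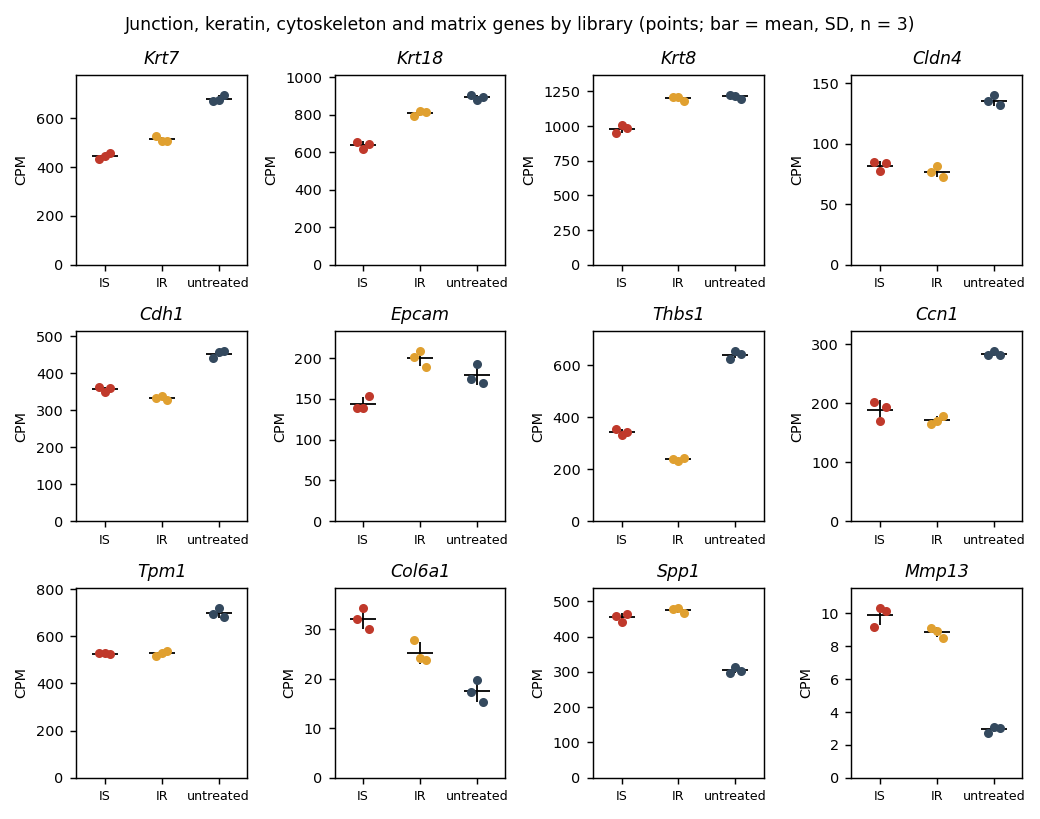
CPM of 12 junction, keratin, cytoskeleton and matrix genes, with 1 point a library for IS exosomes, IR exosomes and untreated cells from left to right; the bar is the mean and the line the SD (n = 3), and every vertical axis starts at 0. Epcam and Krt8 are lowest in the IS exosome libraries, Thbs1 is between both other groups, and Col6a1, Spp1 and Mmp13 are higher with IS exosomes than untreated in every library.

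In each list of matrix genes more of the tested members rose than fell in IS exosome cells. At a mean of at least 100 CPM this did not hold in each list. There 2 of 11 proteases and inhibitors rose and 5 fell, and 1 of 6 collagen genes rose and 2 fell. Matrix glycoproteins had 7 rises and 5 falls among 14 at that level, and basement membrane genes 5 and 2 among 12. Over all genes of that level 7.95% rose and 22.7% fell. Of 23 tested matricellular and other glycoproteins, 12 rose and 6 fell (median log2 0.23), beside 9.97% higher and 9.32% lower over all genes. A further 20 of the 43 listed were below the filter. Ecm1, a secreted glycoprotein, had 147, 152 and 136 CPM in IS exosome cells, against 89.9, 81.7 and 84.9 CPM in untreated cells, a log2 fold change of 0.76 ± 0.056 (SE), adjusted p = 7.39e-08. Ltbp2, of the family of latent TGF-beta binding proteins, had 227, 229 and 228 CPM with IS exosomes, 204, 193 and 211 CPM with IR exosomes and 154, 142 and 152 CPM without. It was highest with IS exosomes (log2 fold change over untreated 0.61 ± 0.041 (SE), adjusted p = 2.68e-08, over IR exosomes 0.17 ± 0.041 (SE), adjusted p = 0.0211). Spp1, osteopontin, a ligand of integrins and CD44, had 459, 441 and 465 CPM with IS exosomes and 297, 313 and 302 CPM without. The log2 fold change of Spp1 was 0.58 ± 0.036 (SE), adjusted p = 7.87e-09.

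Thbs1, thrombospondin 1, an inhibitor of blood vessel growth that also activates TGF-beta, moved the other way. It had 353, 330.1 and 344 CPM with IS exosomes, 238, 232 and 244 CPM with IR exosomes and 625, 652 and 644 CPM in untreated cells. The log2 fold change over untreated was -0.90 ± 0.037 (SE), adjusted p = 3.93e-11, and the level was higher than with IR exosomes (IS over IR, log2 0.53 ± 0.038 (SE), adjusted p = 2.82e-06). The largest fall of the list by log2 fold change was that of Postn, periostin, a matricellular protein that also marks fibroblasts. It is named here after its values were seen. Postn was at a low level, 1.54, 1.995 and 2.64 CPM with IS exosomes, 1.37, 1.504 and 1.19 CPM with IR exosomes and 7.08, 6.496 and 5.19 CPM in untreated cells (log2 fold change over untreated -1.58 ± 0.22 (SE), adjusted p = 0.000104). Postn passed the filter only through the untreated libraries. Adamts1, a protease that cuts proteoglycans and thrombospondin, had 59.9, 61.9 and 56.2 CPM with IS exosomes, 41.7, 43.2 and 38.9 CPM with IR exosomes and 111, 118 and 111 CPM in untreated cells. It shared the order of Thbs1, with a log2 fold change over untreated of -0.94 ± 0.055 (SE), adjusted p = 3.83e-09, and over IR exosomes 0.52 ± 0.059 (SE), adjusted p = 0.000104.

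Collagens and their maturation enzymes rose in 7 of 16 tested members and fell in 2, or in 1 without IS 2, control 2 or control 3. In all 56.2% were called, beside 19.3% of all genes. Col6a1, a chain of the microfibril-forming collagen VI, had 32.01, 34.3 and 30.1 CPM with IS exosomes, 27.8, 24.2 and 23.8 CPM with IR exosomes and 17.4, 19.8 and 15.4 CPM without. Col5a1, a chain of the collagen that sets fibril width, had 76.1, 75.6 and 80.3 CPM with IS exosomes, 58.9, 59.8 and 62.5 CPM with IR exosomes and 54.3, 47.01 and 54.6 CPM without. Both were highest in the IS exosome libraries, with log2 fold changes over untreated of 0.88 ± 0.099 (SE), adjusted p = 1.14e-05, for Col6a1 and 0.57 ± 0.06 (SE), adjusted p = 5.3e-06, for Col5a1. Over IR exosomes the log2 fold changes were 0.34 ± 0.093 (SE), adjusted p = 0.0387, for Col6a1 and 0.36 ± 0.059 (SE), adjusted p = 0.00213, for Col5a1. Col16a1 had the same order (121, 123 and 121 CPM with IS exosomes, 111, 97.96 and 99.96 with IR exosomes and 91.4, 82.5 and 89.3 without, log2 fold change over untreated 0.47 ± 0.056 (SE), adjusted p = 1.79e-05). Loxl4, which crosslinks collagen, fell by 0.35 (log2, adjusted p = 0.000143). Within this list, 5 of 16 members were higher with IS than with IR exosomes and 0 lower, beside 3.45% and 2.82% of all genes (6.27% in both directions). Shares by level were not taken for this comparison.

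In the basement membrane, the sheet of matrix below epithelia, 6 of 15 tested members rose and 2 fell (53.3% called, beside 19.3% of all genes), and 1 fell without IS 1, control 2 or control 3. Col4a2, a chain of its main collagen, had 501, 527 and 512 CPM with IS exosomes, 458, 412 and 443 CPM with IR exosomes and 405, 398 and 417 CPM without. It stood above both other groups in every library (log2 fold change over untreated 0.34 ± 0.041 (SE), adjusted p = 2.37e-05, over IR exosomes 0.23 ± 0.041 (SE), adjusted p = 0.00352). Col4a1, its partner chain, rose by 0.26 (log2, adjusted p = 2.85e-05), and Lamb2, a laminin chain, by 0.56 (log2, adjusted p = 0.000713).

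Matrix proteases and their inhibitors rose in 13 of 36 tested members and fell in 7 (55.6% called, beside 19.3% of all genes). Mmp13, a collagenase, had 9.18, 10.3 and 10.2 CPM with IS exosomes, against 2.73, 3.08 and 3.04 CPM without, a log2 fold change of 1.74 ± 0.16 (SE), adjusted p = 8.79e-07. Mmp3, stromelysin 1, had 151, 151 and 152 CPM with IS exosomes and 100.0, 105 and 108 CPM without, a log2 fold change of 0.54 ± 0.041 (SE), adjusted p = 1.19e-07. Serpine2, an inhibitor of thrombin and urokinase, had 65.8, 70.9 and 70.02 CPM with IS exosomes and 38.02, 39.5 and 31.9 CPM without, a log2 fold change of 0.92 ± 0.071 (SE), adjusted p = 1.34e-07. For these 3 genes every IS exosome library was above every untreated one, and no difference between IS and IR exosomes was called. Mmp13 would not have passed the filter through its untreated libraries alone.

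Mmp3 and Mmp13 lie on the same chromosome in mouse and are textbook targets of AP-1, the Fos and Jun dimer, whose site is written TGANTCA. Their RefSeq promoter windows (GRCm38.p6, 250 bases before to 50 after the start) are shown because both genes rose together. Capitals mark each match of TGANTCA, a pattern that reads the same on both strands.
Mmp3, chr9:7445572-7445871, plus strand: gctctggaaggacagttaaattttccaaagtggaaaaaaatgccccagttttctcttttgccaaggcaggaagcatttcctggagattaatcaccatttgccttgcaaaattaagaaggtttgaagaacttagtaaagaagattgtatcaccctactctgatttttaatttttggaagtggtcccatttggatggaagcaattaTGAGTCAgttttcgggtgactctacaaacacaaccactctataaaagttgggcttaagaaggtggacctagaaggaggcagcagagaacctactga
Mmp13, chr9:7272264-7272563, plus strand: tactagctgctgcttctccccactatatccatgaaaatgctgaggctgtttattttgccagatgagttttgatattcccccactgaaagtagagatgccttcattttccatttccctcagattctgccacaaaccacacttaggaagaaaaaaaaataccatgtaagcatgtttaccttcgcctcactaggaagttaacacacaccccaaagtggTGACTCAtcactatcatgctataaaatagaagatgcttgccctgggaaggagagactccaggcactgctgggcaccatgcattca
Each window held 1 match, which began 46 bases before the start of Mmp3 and 35 bases before that of Mmp13, and 7.81% of 32851 promoter windows held at least 1. These letters describe the windows and not the activity of the factor. Junb, which encodes a member of AP-1, was lower in IS exosome cells (219.9, 226 and 232 CPM) than in untreated cells (264, 271 and 256 CPM, log2 fold change -0.22 ± 0.037 (SE), adjusted p = 0.000507). With IR exosomes Mmp3 and Mmp13 rose too (log2 over untreated 0.61 and 1.58), and Junb was not called (log2 -0.054, adjusted p = 0.386). Other Fos and Jun genes are not given here, and a part of AP-1 in these changes was not tested.

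Genes of hyaluronan and cell surface proteoglycans rose in 5 of 16 tested members, 3 without IS 3 or control 3, and fell in 1 (37.5% called, beside 19.3% of all genes). Has2, a synthase of hyaluronan, was the one that fell. It was at 102, 95.7 and 101 CPM with IS exosomes, 114, 125 and 123 CPM with IR exosomes and 115, 126 and 122 CPM without. The log2 fold change of Has2 over untreated was -0.28 ± 0.052 (SE), adjusted p = 0.00115, and over IR exosomes -0.28 ± 0.052 (SE), adjusted p = 0.00467. Sdc1, syndecan 1, rose by 0.15 (log2, adjusted p = 0.00484), Sulf2, which trims sulfate from heparan sulfate, by 0.53 (log2, adjusted p = 0.00271), and Hpse, heparanase, by 1.30 (log2, adjusted p = 0.00465). The Hpse call rests on 4.71, 2.58 and 3.11 CPM with IS exosomes and 1.52, 1.65 and 1.16 CPM without. Hpse passed the filter only through exosome libraries.

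All but 1 of the called genes of mitosis and DNA replication were lower. Most members were not called. Of 36 mitosis genes, all tested, 13 fell and 0 rose (median log2 -0.11), and of 41 DNA replication genes 11 fell and 1 rose (median log2 -0.046). With a library left out, mitosis had 9 to 14 lower members, with 9 without IS 2 or control 2, and the single rise in DNA replication was lost without IS 1, control 1 or control 2. Of the 27 mitosis genes at a mean of at least 100 CPM 12 fell, and of the 22 such replication genes 9 fell, where 22.7% of all genes of that level did. Mki67, the gene of the proliferation antigen Ki-67, was at 458, 438 and 449 CPM with IS exosomes and 480.3, 459 and 476 CPM without and was not called (log2 fold change -0.072 ± 0.057 (SE), adjusted p = 0.416).

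Bub1b, a kinase of the spindle checkpoint, had 140.0, 135 and 146 CPM with IS exosomes, 164, 164 and 165 CPM with IR exosomes and 170.2, 178 and 167 CPM in untreated cells. Cdc20, which activates the anaphase-promoting complex, had 201, 208 and 215 CPM with IS exosomes, 252, 236 and 243 CPM with IR exosomes and 238, 253 and 261 CPM in untreated cells. Both were lowest in the IS exosome libraries, with log2 fold changes over untreated of -0.29 ± 0.039 (SE), adjusted p = 7.19e-05, for Bub1b and -0.27 ± 0.042 (SE), adjusted p = 0.000271, for Cdc20. Over IR exosomes the log2 fold changes were -0.23 ± 0.039 (SE), adjusted p = 0.0029, for Bub1b and -0.23 ± 0.042 (SE), adjusted p = 0.00422, for Cdc20. Prc1, which bundles the microtubules of the midzone, fell by 0.24 over untreated cells (log2, adjusted p = 0.000202), and Ccnb1, cyclin B1, by 0.21 (log2, adjusted p = 0.000378). Over the whole mitosis list, 9 of 36 members were lower with IS than with IR exosomes and 0 higher, beside 2.82% lower and 3.45% higher of all genes. Shares by level were not taken for this comparison, and 27 of the 36 had a mean of at least 100 CPM.

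Mcm7, a subunit of the replicative helicase, had 217, 225 and 229.9 CPM with IS exosomes, 268, 264 and 263 CPM with IR exosomes and 269, 279 and 272 CPM in untreated cells. Its log2 fold change was -0.29 ± 0.035 (SE), adjusted p = 2.37e-05, over untreated and -0.24 ± 0.035 (SE), adjusted p = 0.000889, over IR exosomes. Mcm5, of the same ring, fell by 0.24 (log2, adjusted p = 0.000208), and Uhrf1, which carries DNA methylation through replication, by 0.26 (log2, adjusted p = 0.000246). Ung, which removes uracil from DNA, had 21.4, 23.4 and 24.1 CPM with IS exosomes, 32.9, 32.03 and 31.1 CPM with IR exosomes and 37.6, 35.6 and 39.1 CPM in untreated cells. Every IS exosome library of Ung was below every library of both other groups (log2 fold change over untreated -0.71 ± 0.074 (SE), adjusted p = 5.24e-06, over IR exosomes -0.48 ± 0.075 (SE), adjusted p = 0.00165).

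Of 23 tested G1 cyclins and their inhibitors, 4 rose and 1 fell, and their 21.7% called was near the 19.3% of all genes. Ccnd2, cyclin D2, had 171, 176 and 164 CPM with IS exosomes, 117, 119.6 and 125 CPM with IR exosomes and 133, 143 and 136 CPM in untreated cells, highest with IS and lowest with IR exosomes. Its log2 fold change was 0.31 ± 0.044 (SE), adjusted p = 0.000108, over untreated and 0.50 ± 0.044 (SE), adjusted p = 1.75e-05, over IR exosomes. Ccne1, cyclin E1, which drives entry into replication, had 25.7, 22.9 and 28.6 CPM with IS exosomes, 17.8, 19.4 and 18.5 CPM with IR exosomes and 15.2, 17.9 and 13.4 CPM in untreated cells (log2 fold change over untreated 0.75 ± 0.11 (SE), adjusted p = 0.000156). Its difference from IR exosomes (0.48 ± 0.11 (SE), adjusted p = 0.0144 on the log2 scale) lost the call without IS 3 or IR 3. Ccnd3, cyclin D3, rose by 0.28 (log2, adjusted p = 0.00279), and Myc, which promotes growth, fell by 0.17 (log2, adjusted p = 0.00614).

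**Figure D4:**
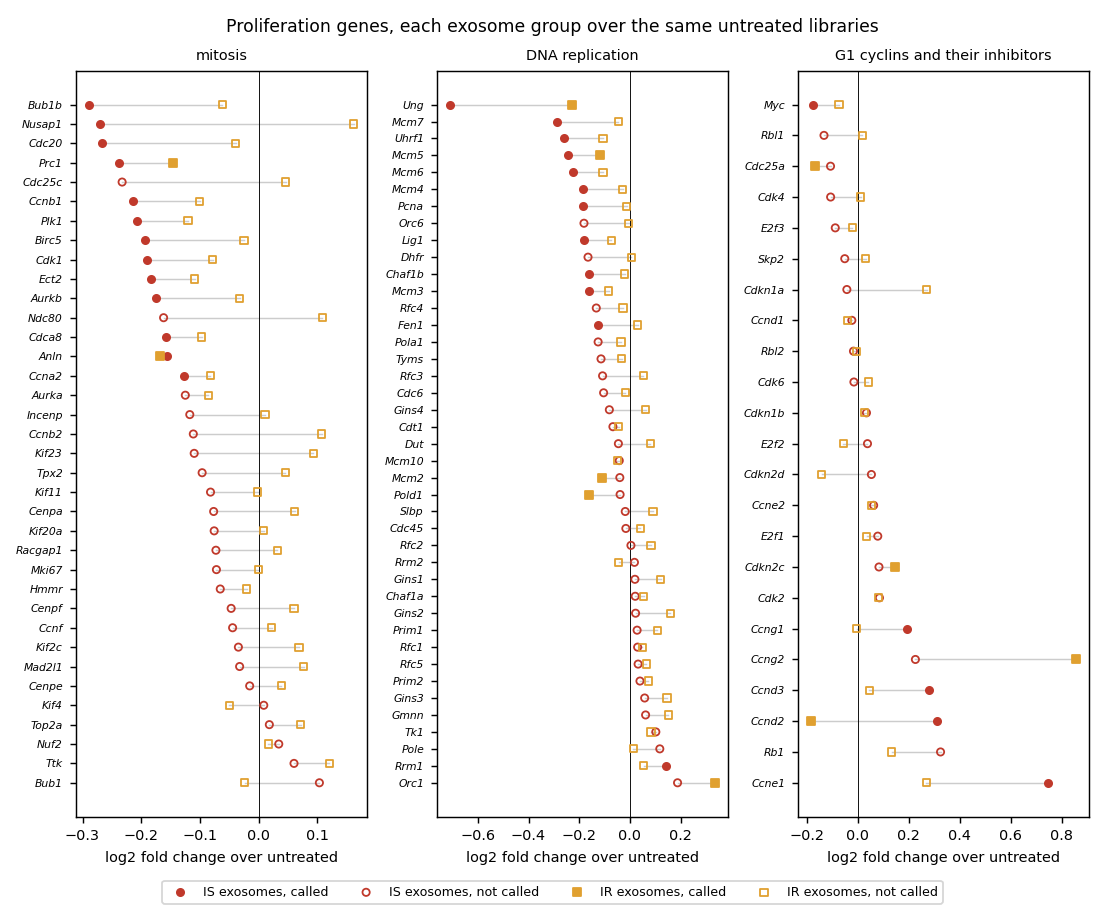
Log2 fold change of every tested member of the mitosis, DNA replication and G1 lists, with IS exosomes (red circles) and IR exosomes (yellow squares) each over the same untreated libraries, filled where called. The 13 called mitosis genes all lie left of 0 with IS exosomes, and Ccnd2 lies on opposite sides of 0 (0.31 with IS and -0.18 with IR exosomes).

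Among signalling receptors more members rose than fell, as did all genes of low level (11.7% higher and 1.57% lower below 10 CPM, 10.5% and 4.78% from 10 to 50 CPM). Of 25 tested receptor tyrosine kinases, 5 rose and 2 fell, of 27 cytokine, death and pattern receptors 8 rose and 1 fell, and of 27 G protein coupled receptors 9 rose and 3 fell. With a library left out, rises were at their fewest 3 among the kinases (without IS 2, control 1 or control 2) and 5 among the G protein coupled receptors (without IS 1 or IS 2), and 1 kinase fell without IS 2, control 1 or control 3. Pdgfra, the alpha receptor of platelet-derived growth factor, had 25.2, 30.98 and 25.5 CPM in IS exosome cells, against 15.1, 11.3 and 13.2 CPM in untreated cells. The log2 fold change of Pdgfra was 1.03 ± 0.11 (SE), adjusted p = 6.68e-06. Its ligand gene Pdgfb fell in the same cells, as given above. Epha2, an ephrin receptor, had 313, 334 and 324 CPM with IS exosomes and 382, 391 and 404 CPM without, a log2 fold change of -0.28 ± 0.041 (SE), adjusted p = 0.000143. Fgfr2, a fibroblast growth factor receptor, rose by 0.35 (log2, adjusted p = 0.000977), and Ddr1, a receptor for collagen, by 0.37 (log2, adjusted p = 0.000305).

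Adgrg1, an adhesion receptor of the G protein coupled family, had 34.4, 32.04 and 32.8 CPM with IS exosomes, 22.5, 21.9 and 22.5 CPM with IR exosomes and 17.1, 14.6 and 16.8 CPM in untreated cells. The 3 groups did not overlap, and IS exosome cells were highest (log2 fold change over untreated 1.03 ± 0.081 (SE), adjusted p = 1.85e-07, over IR exosomes 0.57 ± 0.077 (SE), adjusted p = 0.000489). F2rl1, a receptor that proteases switch on, was lowest in IS exosome cells, at 32.2, 36.3 and 31.6 CPM with IS exosomes, 37.7, 40.7 and 38.8 CPM with IR exosomes and 44.7, 45.5 and 46.3 CPM without (log2 fold change over untreated -0.46 ± 0.067 (SE), adjusted p = 0.000152). Gprc5b rose by 1.05 (log2, adjusted p = 0.000298) and Gprc5a fell by 0.34 (log2, adjusted p = 0.000379). Il6ra, the receptor of interleukin 6, had 21.9, 24.6 and 22.4 CPM with IS exosomes and 12.6, 11.5 and 12.1 CPM without, a log2 fold change of 0.92 ± 0.10 (SE), adjusted p = 1.16e-05. Il4ra rose by 0.42 (log2, adjusted p = 0.000542) and Ifnar2, a chain of the type I interferon receptor, by 0.48 (log2, adjusted p = 0.00165), while Tnfrsf12a, the receptor of TWEAK, fell by 0.43 (log2, adjusted p = 3.04e-06).

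In the TGF-beta family, 4 of 27 tested members rose and 5 fell (33.3% called, beside 19.3% of all genes). There were 3 falls without IS 1, control 2 or control 3. Id1, a target of bone morphogenetic proteins that blocks differentiation factors, had 56.7, 52.8 and 59.2 CPM with IS exosomes and 30.8, 28.6 and 29.3 CPM without, a log2 fold change of 0.93 ± 0.073 (SE), adjusted p = 1.75e-07. Tgfbr3, betaglycan, a co-receptor, had 15.8, 14.2 and 11.4 CPM with IS exosomes and 3.74, 4.95 and 5.46 CPM without, a log2 fold change of 1.54 ± 0.17 (SE), adjusted p = 8.62e-06. Inhba, a chain of activin, had 64.01, 64.1 and 64.9 CPM with IS exosomes and 85.8, 91.5 and 94.2 CPM without, a log2 fold change of -0.49 ± 0.067 (SE), adjusted p = 7.87e-05. So a co-receptor and a target were higher and a ligand lower, and Bmp7, another ligand, fell by 0.31 (log2, adjusted p = 0.00109). With IR exosomes Id1, Tgfbr3, Inhba and Bmp7 moved the same way (log2 over untreated 0.92, 1.52, -0.46 and -0.35). None of them was called between IS and IR exosomes.

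Wnt and Notch genes gave 3 rises and 4 falls among 25 tested (28% called, beside 19.3% of all genes). There was 1 fall without IS 3 and 2 without control 3. Dll1, a Notch ligand, rose by 0.55 (log2, adjusted p = 0.000512), Fzd5, a Wnt receptor, rose by 0.41 (log2, adjusted p = 0.00191), and Lgr6, a receptor of R-spondins, fell by 0.38 (log2, adjusted p = 0.00532). Notch1 itself was at 57.4, 58.2 and 54.03 CPM with IS exosomes, 44.2, 47.6 and 44.2 CPM with IR exosomes and 67.05, 61.9 and 69.6 CPM in untreated cells. It lay between both other groups, and its fall over untreated (log2 -0.23 ± 0.058 (SE), adjusted p = 0.01) was lost without IS 3 or control 3. Guidance genes, which steer growing axons and also cell migration, rose in 9 of 25 tested members and fell in 3 (48% called, beside 19.3% of all genes). There were 0 falls without IS 3. Of the 25, 7 had a mean of 100 CPM or more. Among all genes from 10 to 50 CPM, 10.5% rose and 4.78% fell. Sema3e, a semaphorin, had 52.9, 54.8 and 49.3 CPM with IS exosomes and 36.7, 38.5 and 36.4 CPM without (log2 fold change 0.49 ± 0.059 (SE), adjusted p = 2.18e-05), and Ntn1, netrin 1, had 54.8, 62.1 and 56.5 CPM with IS exosomes, 74.9, 74.95 and 64.6 CPM with IR exosomes and 38.02, 42.7 and 39.5 CPM without (log2 fold change over untreated 0.52 ± 0.073 (SE), adjusted p = 8.99e-05). Ntn1 was lower with IS than with IR exosomes (log2 -0.31 ± 0.068 (SE), adjusted p = 0.0131). At low levels, Sema3c rose by 1.88 (log2, adjusted p = 0.000341) and Sema3b by 0.81 (log2, adjusted p = 0.000821). Sema3c, at 0.71 to 2.42 CPM in untreated cells, passed the filter only through exosome libraries.

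Nuclear receptors, transcription factors that bind small lipophilic ligands, rose in 5 of 19 tested members and fell in 0 (26.3% called, beside 19.3% of all genes). Of the 19, 0 had a mean of 100 CPM or more. Among all genes from 10 to 50 CPM, 10.5% rose and 4.78% fell. Thra, a thyroid hormone receptor, had 30.8, 33.3 and 31.1 CPM in IS exosome cells, against 20.5, 19.9 and 19.9 CPM in untreated cells, a log2 fold change of 0.65 ± 0.077 (SE), adjusted p = 1.62e-05. Esrra, a receptor that drives mitochondrial and oxidative genes, had 56.1, 55.3 and 55.4 CPM with IS exosomes and 39.4, 40.1 and 37.9 CPM without, a log2 fold change of 0.51 ± 0.055 (SE), adjusted p = 7.63e-06. Nr1d1, a repressor of the clock, rose by 0.41 (log2, adjusted p = 0.00374).

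The list of growth factor ligands, which also holds the carrier Fgfbp1, changed in 11 of 17 tested members, 7 higher and 4 lower, 2 without IS 2 or IS 3. In all 64.7% were called, beside 19.3% of all genes, and 18 of the 35 listed were below the filter. Of the 17, 3 had a mean of 100 CPM or more, and 2 of these fell. Among all genes below 10 CPM 11.7% rose and 1.57% fell, and from 10 to 50 CPM 10.5% and 4.78%. Besides the falls of Fgfbp1 and Pdgfb, 2 vessel factors rose at low levels. Angpt1, a ligand of the endothelial receptor Tie2, had 3.899, 3.404 and 3.65 CPM with IS exosomes and 0.91, 0.44 and 0.537 CPM without, a log2 fold change of 2.52 ± 0.28 (SE), adjusted p = 8.79e-06. Angptl4, an inhibitor of lipoprotein lipase that also acts on vessels, had 5.85, 6.22 and 5.36 CPM with IS exosomes and 1.11, 1.32 and 2.06 CPM without, a log2 fold change of 1.92 ± 0.23 (SE), adjusted p = 1.69e-05. No IS exosome library overlapped an untreated one for either gene. Both passed the filter of 3 CPM only through exosome libraries, so this separation and their place among the 7 rises follow in part from the filter.

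Insulin and insulin-like growth factor (IGF) signalling genes rose in 4 of 27 tested members and fell in 3 (25.9% called, beside 19.3% of all genes). These were 2 and 1 at the fewest with a library left out (rises without IS 1, IS 3, control 1 or control 2, falls without IS 3, control 1 or control 2). Insr, the insulin receptor, was not called, at 52.6, 48.7 and 54.96 CPM with IS exosomes and 52.4, 57.5 and 51.5 CPM without (log2 fold change -0.038 ± 0.068 (SE), adjusted p = 0.743). Igfbp4, which binds IGFs outside the cell, had 1481, 1518 and 1535 CPM with IS exosomes, 1669, 1665 and 1653 CPM with IR exosomes and 1203, 1179 and 1204 CPM without. The 3 groups did not overlap and IR exosome cells were highest (log2 fold change of IS exosomes over untreated 0.34 ± 0.026 (SE), adjusted p = 1.4e-07, over IR exosomes -0.14 ± 0.026 (SE), adjusted p = 0.0053). Igf2r, which clears IGF2 and sorts lysosomal enzymes, had 281, 276 and 281 CPM with IS exosomes, 227, 254 and 241 CPM with IR exosomes and 225, 229.6 and 253 CPM without (log2 fold change over untreated 0.24 ± 0.048 (SE), adjusted p = 0.00179, over IR exosomes 0.21 ± 0.047 (SE), adjusted p = 0.0145). Pik3cb, a catalytic subunit of PI 3-kinase, fell by 0.44 (log2, adjusted p = 1.9e-05).

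The adaptors of the insulin receptor went in opposite directions. Irs1 had 22.3, 23.5 and 22.5 CPM with IS exosomes, 16.2, 12.9 and 16.97 CPM with IR exosomes and 17.9, 17.9 and 18.3 CPM in untreated cells, so every IS exosome library was above every other one. Its rise over untreated cells (log2 0.33 ± 0.098 (SE), adjusted p = 0.0251) was lost with DESeq2 and when any of the 6 libraries was left out, and the difference from IR exosomes was log2 0.57 ± 0.099 (SE), adjusted p = 0.00316. Irs2 had 69.9, 75.1 and 69.6 CPM with IS exosomes and 82.2, 81.8 and 79.00 CPM without (log2 fold change -0.18 ± 0.052 (SE), adjusted p = 0.0212), a call lost without IS 1, IS 3, control 1 or control 2.

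Immediate early genes and feedback inhibitors of ERK, the kinase below growth factor receptors, gave 6 rises and 5 falls among 32 tested (34.4% called, beside 19.3% of all genes). There were 3 rises at the fewest (without IS 1, IS 2, control 1 or control 2) and 3 falls without control 3. Ier3, an early gene that bears on cell survival, had 195, 198 and 201 CPM with IS exosomes, against 118, 120.1 and 109.9 CPM in untreated cells, a log2 fold change of 0.77 ± 0.043 (SE), adjusted p = 2.07e-09. Spred3, an inhibitor of ERK signalling, had 26.7, 28.3 and 26.2 CPM with IS exosomes, 21.4, 17.9 and 17.6 CPM with IR exosomes and 18.6, 15.1 and 12.5 CPM without (log2 fold change over untreated 0.82 ± 0.12 (SE), adjusted p = 0.000154). Etv4, a transcription factor downstream of ERK, rose by 0.28 (log2, adjusted p = 0.00109).

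Genes changed by IS but not by IR exosomes were counted with the test of the difference itself: called over untreated cells, called in the same direction over IR exosomes, and not called for IR exosomes over untreated. Of 10888 genes, 298 met this (2.74%), 156 higher (1.43%) and 142 lower (1.3%), with a median size of 0.25 on the log2 scale over untreated. The wider set that was called with IS and not called with IR exosomes held 1165 genes, but most of these did not pass the test between both exosome groups. The count of 298 was 156 without IS 1, 152 without IS 2, 122 without IS 3, 175 without IR 2 and 160 without IR 3. A gene that is not called with IR exosomes is not shown to be the same there as in untreated cells. By list, 5 of 41 DNA replication genes (Mcm7, Uhrf1, Mcm4, Pcna and Fen1) and 4 of 36 mitosis genes (Bub1b, Nusap1, Cdc20 and Birc5) were lower with IS exosomes by this rule, beside 1.3% of all genes. Shares by level were not taken for this rule. Of these members, 22 of 41 and 27 of 36 had a mean of at least 100 CPM. At that level 30.7% of all genes were called over untreated cells, against 13.3% under 10 CPM. Junction, keratin and matrix members that met it included Epcam, Krt8 and Has2, lower, and Col4a2, higher.

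The largest rises and falls of this kind are given for genes with a mean of at least 10 CPM whose IS exosome libraries overlapped neither other group. Genes of lower level with larger changes are not named. Lgals9, galectin 9, a secreted lectin that acts on T cells, had 16.4, 17.6 and 17.9 CPM with IS exosomes, 11.8, 11.4 and 12.4 CPM with IR exosomes and 8.899, 12.4 and 8.499 CPM in untreated cells. Ikbke, an innate immune kinase, had 23.9, 23.9 and 22.2 CPM with IS exosomes, 19.8, 14.6 and 16.8 CPM with IR exosomes and 14.7, 13.8 and 14.05 CPM in untreated cells. Krcc1 had 45.4, 42.4 and 48.2 CPM with IS exosomes, 35.4, 31.4 and 33.2 CPM with IR exosomes and 30.2, 28.1 and 30.3 CPM in untreated cells. For all 3 genes the IS exosome libraries were above the other 6, and over IR exosomes the log2 fold changes were 0.54 ± 0.13 (SE), adjusted p = 0.0175, for Lgals9, 0.45 ± 0.10 (SE), adjusted p = 0.0164, for Ikbke and 0.45 ± 0.07 (SE), adjusted p = 0.00166, for Krcc1. Prickle1, of planar cell polarity, Dzip1, of cilium formation, Nucb2, the precursor of nesfatin, Ldhb, a subunit of lactate dehydrogenase, and Apc2, a relative of the Wnt regulator APC, rose by 0.91, 0.83, 0.71, 0.67 and 0.64 over untreated cells, and Spred3 and Ccne1, given above, complete the 10. Of these 10, Krcc1 alone kept its call over IR exosomes with any library left out, and Prickle1 and Apc2 also lost theirs with DESeq2.

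Among the falls, H1f0, a linker histone that builds up in cells that stop dividing, had 232, 260.2 and 258 CPM with IS exosomes, 389, 375 and 371 CPM with IR exosomes and 395, 380.3 and 418 CPM in untreated cells. Dhx15, an RNA helicase that takes spliceosomes apart, had 282, 282 and 279.9 CPM with IS exosomes, 351, 375 and 356 CPM with IR exosomes and 366, 389 and 378 CPM in untreated cells. Stag1, a subunit of cohesin, had 70.8, 65.4 and 67.2 CPM with IS exosomes, 81.5, 86.5 and 85.6 CPM with IR exosomes and 87.2, 92.6 and 94.8 CPM in untreated cells. IS exosome libraries were the 3 lowest for each, and these 3 calls were kept with any library left out. IR exosome and untreated libraries overlapped for H1f0 and Dhx15. For Stag1 every IR exosome library was below every untreated one, a difference that was not called (IR over untreated, log2 -0.12, adjusted p = 0.173). Over untreated cells the log2 fold changes were -0.67 ± 0.048 (SE), adjusted p = 4.71e-08, for H1f0, -0.42 ± 0.038 (SE), adjusted p = 7.13e-07, for Dhx15 and -0.43 ± 0.053 (SE), adjusted p = 2.62e-05, for Stag1, and over IR exosomes -0.60, -0.36 and -0.32. By the same conditions the other 7 largest falls were Sp4, Eci1, Nufip1, Prxl2c, Dnajc19, Crebzf and Rpl22l1, by 0.38 to 0.62 over untreated cells, and each lost its call over IR exosomes without at least 1 library. They include a transcription factor (Sp4), an enzyme of fatty acid oxidation (Eci1) and a component of mitochondrial protein import (Dnajc19).

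A further 9 genes, 0.0827% of those tested, were called in opposite directions by both kinds of exosome over the same untreated libraries. Slco4a1, an organic anion transporter, had 20.1, 21.2 and 19.2 CPM with IS exosomes, 10.1, 10.1 and 10.5 CPM with IR exosomes and 15.5, 13.4 and 15.7 CPM in untreated cells. Untreated cells lay between the exosome groups with no overlap, with log2 fold changes of 0.43 ± 0.097 (SE), adjusted p = 0.0049, for IS exosomes and -0.54 ± 0.11 (SE), adjusted p = 0.0026, for IR exosomes. Ccnd2, given above, had the same order. Arhgap29, a GTPase-activating protein, Mical2, which oxidises actin, St6galnac4, a sialyltransferase, and Csf1, the macrophage growth factor, were also higher with IS and lower with IR exosomes, by 0.31, 0.28, 0.21 and 0.13 for IS over untreated. The order was reversed for Plxnb1, a semaphorin receptor. It had 77.6, 82.98 and 77.3 CPM with IS exosomes, 109.7, 104 and 107 CPM with IR exosomes and 95.6, 85.5 and 90.9 CPM in untreated cells. Bnip3l, a receptor of mitophagy, and H3f3a, a histone H3.3 gene whose reads may be split with a second gene of the same protein, were also lower with IS (log2 -0.17 and -0.13) and higher with IR exosomes (log2 0.17 and 0.14). All 9 passed the direct test of IS over IR exosomes, Slco4a1 with the largest value (log2 0.97 ± 0.10 (SE), adjusted p = 4.35e-05). Over untreated cells the IS calls of Slco4a1 and Ccnd2 were kept with any library left out, and those of the other 7 were lost without at least 1.

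**Figure D5:**
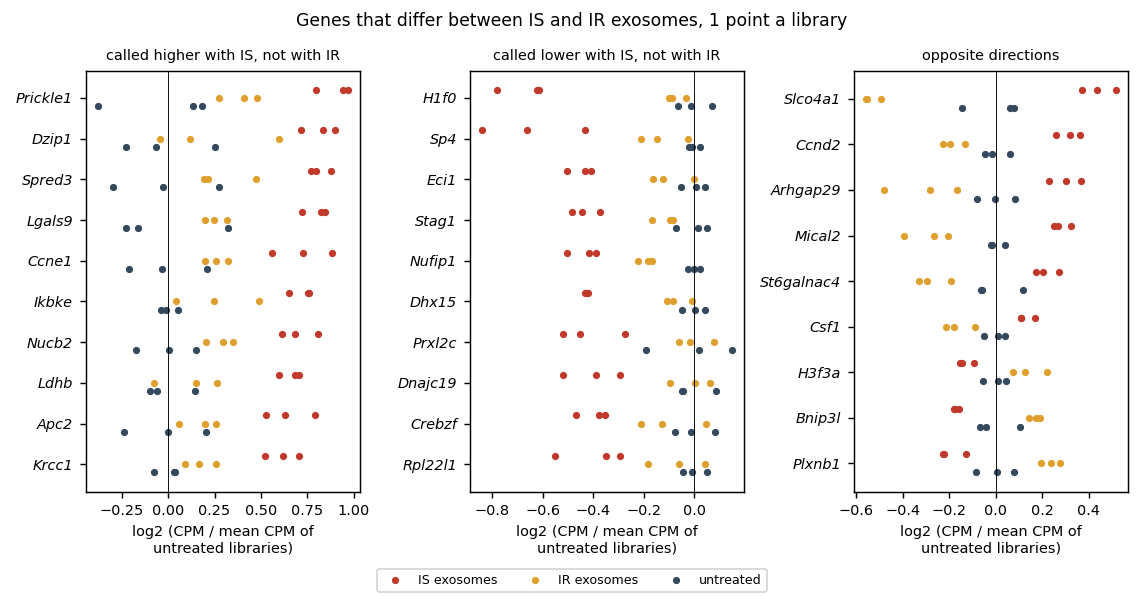
Level of the named genes in each library as log2 of CPM over the mean of the untreated libraries, with IS exosomes (red), IR exosomes (yellow) and untreated cells (dark) from top to bottom within each gene. Left and middle are the 10 largest rises and falls, among genes of at least 10 CPM whose IS exosome libraries overlapped neither other group, that were called with IS exosomes and over IR exosomes but not with IR exosomes, and right are the 9 genes called in opposite directions; for H1f0, Dhx15 and Stag1 the IS exosome libraries stand apart from the other 6.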

How the data were processed

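Per the labels' protocols, RNA of 4T1 cells was made into stranded messenger RNA libraries, and per the series' design text these were sequenced as read pairs and run through an nf-core pipeline. The deposited table holds RSEM expected counts per gene, per the file headers and title, which the authors did not normalise between libraries. Trimmomatic, STAR, featureCounts and DESeq2 appear in the submitters' processing notes, with the builds GRCm38 (mm10) and GRCm39 (mm39), but the build of this table was not given. The table has 3 columns that fit no sample, and they were left out. IR exosome columns were matched to their group and are numbered as in the table. Of 55487 identifiers, 52139 were named through the authors' deposited tumour table of salmon estimated counts, of which the values were not used here, 3257 from a reference gene table, and 91 stayed unnamed.

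Expected counts were rounded to whole numbers (97.8% were whole as deposited). Genes with 3 CPM or more in at least 3 of the 9 libraries were kept, as in the series' text, leaving 10888. Libraries were scaled by trimmed means of M values (TMM), and tests were the quasi-likelihood tests of edgeR 4.0.16 in R 4.3.3 with 3 groups and 6 residual degrees of freedom, adjusted by Benjamini and Hochberg and called at 0.05. The biological coefficient of variation was 0.0576. SE, the standard error of log2 fold changes, was taken from the F statistic, and CPM use the scaled library sizes, so values of genes of few counts are the least precise. The scripts were tested on simulated data. No library pair of a group agreed within sampling noise.

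Named genes were the 10 largest rises and falls of at least 10 CPM without overlap of libraries and outside sterol, lipid and cytokine lists, up to 4 called members of each list with the smallest p, the 10 largest rises and falls among genes changed with IS but not IR exosomes with the same level limit and no overlap with either other group, every gene of at least 10 CPM called in opposite directions, and Cdh1, Epcam, Vim, Mki67, Insr and Irs1. A few genes that this rule selects are not reported here. Genes outside this rule are named as members of a count or as picked once values were known. The members, lists and rules were chosen with earlier results of these data known. Alternatives were DESeq2 1.42.0, other scalings and filters, a fit of 6 libraries, the replicate number as a block, and each library left out. Promoter windows are RefSeq's (GRCm38.p6), searched on both strands.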

Additional observations from a re-analysis of the deposited data

How the results depend on the processing

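The number of genes called with IS exosomes over untreated cells stayed within 1.5 times of 2101 under every alternative run: 1655 with DESeq2, 2099 with relative log expression scaling, 2018 with upper quartile scaling, 2289 without a filter, 2166 with filterByExpr, 2315 with the 6 libraries alone, and 1503 to 1688 with a library left out. Upper quartile scaling shifted all genes by 0.017 (log2) and put 59.8% of called genes on the higher side, against 51.7%. The number changed with IS but not IR exosomes was less stable. It was 229 with DESeq2, 402 without a filter and 255 where IR exosomes also had to miss an unadjusted p of 0.05, and ran from 122 (without IS 3) to 375 (without IR 1) with a library left out, 60 to 196 for genes higher and 62 to 179 for genes lower. The cause was not tested. Libraries with the same replicate number did not deviate together (IS and untreated, correlation of deviations -0.208, 0.077 and -0.101), so the numbers do not pair them. With the replicate block of the IS and untreated libraries 1823 genes were called and 204 changed with IS but not IR exosomes. Of 172 results of named genes that were called, 141 stayed called under every alternative, 31 were lost under at least 1 and none changed direction. Of genes under 10 CPM 13.3% were called, against 30.7% at 100 CPM or more, and the part of depth in this was not tested.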
